A study of Mus musculus with 27 samples.

Results

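The comparison described here set mouse embryonic fibroblasts (MEFs) that received 5 cardiac transcription factors (HNGMT) against MEFs that received none (0TF), both kept in the vehicle dimethyl sulfoxide (DMSO) and without a small molecule. It rests on 6 of the 27 arrays of the series, 3 cultures in each group and 1 array for each culture, and covers all 19938 genes with a probe set of their own. The series asked how the TGFβ pathway bears on the direct conversion of fibroblasts to induced cardiomyocyte-like cells (iCMs), and the other MEF groups received SB431542 (SB), an inhibitor of the type I TGFβ receptor kinase, or TGFβ1.

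HNGMT stands for Hand2, Nkx2.5, Gata4, Mef2C and Tbx5, each carried by its own lentivirus under a promoter that doxycycline turns on. The protocol, given alike for both groups, adds a lentivirus for the doxycycline-responsive activator and one for the Troponin T-GCaMP calcium reporter, then the factor lentiviruses, then doxycycline at 2 µg per mL in a growth medium without EGF, with collection at Day 3. The MEFs came from mixed-background embryos from which the visceral organs, the heart included, had been removed. The 0TF cultures are described as empty vector in one label and as untreated with factors in another, and the collection protocol speaks of MEFs that were not transduced, so the virus that a 0TF culture received is not known here, and the factors and a difference in viral load cannot be told apart. The labels call the 3 cultures of a group independent biological replicates. The number of embryos behind them is not given, and the p-values measure the spread between these cultures.

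Direct conversion relies on transcription factors that act together in the embryonic heart. GATA4, NKX2-5, TBX5, MEF2C and HAND2 bind the regulatory DNA of genes for the contractile apparatus, for calcium release and for cardiac hormones, and they do so in part by binding each other. A fibroblast starts from a different program, in which mesenchymal transcription factors keep up the genes of the extracellular matrix and of growth factor signalling.

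Values are log2 intensities as the authors deposited them, so a difference of 1 is a 2-fold change, and the level of one gene is not set against that of another. The 6 arrays had medians of 7.87 to 7.90 and highest values of 14.52 to 14.63. Over all genes, arrays of the same group correlated with Pearson's r of at least 0.9977, and arrays of different groups with at most 0.9787. A gene was called when its fold was at least 1.5 and its p from limma, adjusted by Benjamini-Hochberg for all genes tested, was under 0.05. In bulk RNA of this kind, more cells that express a gene and more RNA in each such cell cannot be told apart.

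Of the 5 delivered factors, Hand2 was higher with HNGMT, Tbx5 was lower and the other 3 were not called, where 9.08% of all genes were called in either direction. Hand2, a basic helix-loop-helix factor of the heart and limb fields, read 9.18, 9.30 and 9.15 in the 0TF cultures and 11.66, 11.75 and 11.65 in the HNGMT cultures. The groups did not overlap, and the difference was 2.48 (standard error 0.06, adjusted p = 9.44e-16). Tbx5, a T-box factor, read 10.37, 10.33 and 10.48 in the 0TF cultures and 9.37, 9.54 and 9.46 in the HNGMT cultures. All 3 HNGMT cultures were below all 3 0TF cultures, and Tbx5 fell by 0.94 on the log2 scale (adjusted p = 7.53e-09). Mef2c, a MADS-box factor, also had lower readings in every HNGMT culture, with a difference of -0.57 (adjusted p = 1.46e-06) that was short of the fold threshold and passed it without 0TF replicate 3 (-0.59), without HNGMT replicate 2 (-0.62), with quantile normalization (-0.60) and with each array centred on its median (-0.60). Gata4, a zinc finger factor, stood at 8.42 ± 0.13 (SD, n = 3) with 0TF and 8.77 ± 0.23 (SD, n = 3) with HNGMT, a difference of 0.35 (adjusted p = 0.01) that was not called. Nkx2-5, the homeodomain factor, stood at 9.11 ± 0.06 (SD, n = 3) and 9.12 ± 0.10 (SD, n = 3), and its groups overlapped. The methods list human expression assays for NKX2.5, GATA4, MEF2C and TBX5 and a mouse assay for Hand2. The probes are for mouse transcripts, and whether they read the delivered copies was not tested, so the array is no check of delivery for these 4 factors.

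With HNGMT, 910 genes were higher, 4.56% of the 19938 tested, and 900 were lower, 4.51%. The median difference over all genes was -0.01. Among the calls, 397 genes were at least 2-fold higher and 382 at least 2-fold lower. At a larger size the sides differed in number, with 27 genes at least 8-fold higher and 9 at least 8-fold lower, and with 8 and 1 at 16-fold. Readings of the 3 HNGMT cultures lay wholly above those of the 3 0TF cultures for 909 of the raised genes and wholly below for 899 of the lowered ones. Such separation was common, since it held for 46.7% of all genes tested, and 40.5% of all genes had an adjusted p under 0.05 at any fold. The median SD between cultures of a group was 0.053 with 0TF and 0.061 with HNGMT.

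**Figure D1:**
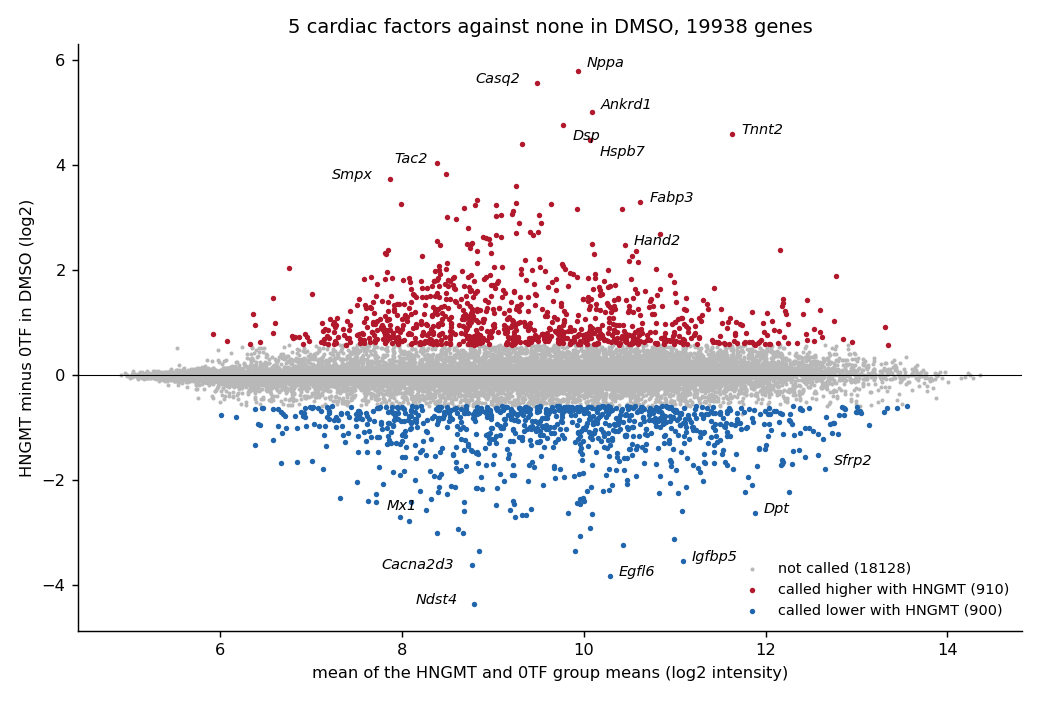
Difference between HNGMT and 0TF in DMSO (log2, vertical axis) against the mean of the group means (log2 intensity, horizontal axis) for 19938 genes, 1 point per gene, with called genes in colour. The 910 raised genes reach 5.81 with Nppa, and the 900 lowered genes reach -4.36 with Ndst4.

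The 3 genes with the largest rise are known from the heart. Nppa, which encodes the atrial natriuretic peptide, read 6.94, 7.15 and 7.0 in the 0TF cultures and 12.87, 12.82 and 12.81 in the HNGMT cultures. Casq2, the calcium-binding protein of the cardiac sarcoplasmic reticulum, read 6.82, 6.72 and 6.55 in the 0TF cultures and 12.26, 12.28 and 12.28 in the HNGMT cultures. Ankrd1, a cardiac ankyrin repeat protein of the sarcomere and nucleus, read 7.50, 7.50 and 7.76 in the 0TF cultures and 12.53, 12.66 and 12.60 in the HNGMT cultures. In each of these genes the 3 HNGMT cultures were close together and far above every 0TF culture. Nppa rose by 5.81 on the log2 scale (standard error 0.08, adjusted p = 1.06e-18), Casq2 by 5.58 (standard error 0.06, adjusted p = 3.34e-20) and Ankrd1 by 5.01 (standard error 0.09, adjusted p = 4.33e-17). Their 0TF readings lay within the range of 6.25 to 8.58 that the 0TF means of 21 endoderm and liver genes spanned, so they may not be above background, and the size of these rises may be understated.

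Dsp (desmoplakin, which ties intermediate filaments to desmosomes) followed with a difference of 4.76, Tnnt2 (cardiac troponin T) with 4.61 and Hspb7 (a small heat shock protein of heart muscle) with 4.48. Of the 25 genes with the highest folds, other muscle genes were Smpx (a small muscle protein) with 3.74, Popdc2 (a Popeye domain protein of the heart) with 3.61, Fabp3 (the heart fatty acid-binding protein) with 3.31, Tmod1 (tropomodulin) with 3.28, although its second probe set gave 0.18, Des (desmin) with 3.25, Nppb (the B-type natriuretic peptide) with 3.24, Myocd (myocardin, a coactivator of serum response factor) with 3.18 and Fhod3 (a formin of the sarcomere) with 3.05. The rest of the 25 were the serpins Serpind1 with 4.41 and Serpina9 with 3.27, Tac2 (a tachykinin precursor) with 4.05, Mgat4a (a glycosyltransferase) with 3.83, Elobl with 3.35, Nnat (neuronatin) with 3.27, F11r (a junctional adhesion molecule) with 3.17, Agt (angiotensinogen) with 3.17, the amino acid transporter Slc7a8 with 3.12, Rpp25 with 3.08 and the chloride channel Ano1 with 3.05.

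The promoters of 5 of the raised cardiac genes are shown as examples. Motifs were searched for 4 of the delivered factors, and none was searched for Hand2. Each sequence is the 250 bases before the annotated start, from RefSeq on GRCm38.p6, written 5′ to 3′ in the direction of transcription. Capitals mark matches on either strand to the GATA motif, searched as AGATAA, as AGATAG, as TGATAA and as TGATAG, to the NKX2-5 motif, searched as TNAAGTG, to the T-box motif, searched as AGGTGT, to the MEF2 motif and to the CArG box that serum response factor binds. A match is a match of letters and is no evidence of binding. The sequences lie at chr4:148000472-148000721 on the plus strand for Nppa, at chr4:147985650-147985899 on the plus strand for Nppb, at chr3:102086165-102086414 on the plus strand for Casq2, at chr1:135836084-135836333 on the plus strand for Tnnt2, for which it is the first of 2 annotated starts, and at chr11:5898783-5899032 on the minus strand for Myl7.
Nppa: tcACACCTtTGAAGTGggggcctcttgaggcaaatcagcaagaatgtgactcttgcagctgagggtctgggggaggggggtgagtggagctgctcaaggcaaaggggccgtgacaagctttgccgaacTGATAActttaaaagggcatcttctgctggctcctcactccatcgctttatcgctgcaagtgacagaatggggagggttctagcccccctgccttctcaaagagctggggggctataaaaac
Nppb: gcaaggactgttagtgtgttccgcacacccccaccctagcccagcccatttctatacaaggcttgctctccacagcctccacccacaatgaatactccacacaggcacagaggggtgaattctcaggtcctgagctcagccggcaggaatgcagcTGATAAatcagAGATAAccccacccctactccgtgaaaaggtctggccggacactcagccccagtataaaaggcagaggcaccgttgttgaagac
Casq2: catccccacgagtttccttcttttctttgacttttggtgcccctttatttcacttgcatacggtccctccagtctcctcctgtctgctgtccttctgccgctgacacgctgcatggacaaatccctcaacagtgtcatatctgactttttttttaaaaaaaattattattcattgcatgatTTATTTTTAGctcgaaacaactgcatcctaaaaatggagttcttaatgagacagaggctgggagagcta
Tnnt2: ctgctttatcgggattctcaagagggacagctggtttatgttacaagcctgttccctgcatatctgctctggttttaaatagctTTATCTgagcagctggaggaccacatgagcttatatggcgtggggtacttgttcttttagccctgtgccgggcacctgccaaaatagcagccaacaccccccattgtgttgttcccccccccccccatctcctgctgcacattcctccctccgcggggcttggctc
Myl7: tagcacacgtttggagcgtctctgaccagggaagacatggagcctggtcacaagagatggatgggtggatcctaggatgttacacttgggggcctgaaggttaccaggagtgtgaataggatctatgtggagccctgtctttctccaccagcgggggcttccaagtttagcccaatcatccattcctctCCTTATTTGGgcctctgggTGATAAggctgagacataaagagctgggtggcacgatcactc
Nppa held 1 GATA, 1 NKX2-5 and 1 T-box match, the last on the opposite strand, and Nppb held 2 GATA matches. Casq2 held 1 MEF2 match, Tnnt2 1 GATA match on the opposite strand at this start and no match at its second one, and Myl7 1 CArG box and 1 GATA match. All 5 printed sequences thus held a match, while the promoters of other raised cardiac genes, such as Hspb7, Des and Tmod1, held none. Promoter sequences were found for 1320 of the 1810 called genes and for 34 of the 41 genes raised in the 7 lists of cardiac structure and function described next. Among all 32851 promoters of the table, 26.5% held a GATA match, 11.8% a T-box match, 10.1% an NKX2-5 match, 2.9% a MEF2 match and 1.5% a CArG box. A GATA match was in 164 of 913 promoters of raised genes, 164 of 847 promoters of lowered genes and 22.4% of those of all genes tested. In the same order, the T-box motif was in 14.0%, 9.0% and 10.9%, the NKX2-5 motif in 7.3%, 9.2% and 9.0%, the MEF2 motif in 3.3%, 1.2% and 2.4%, and the CArG box in 2.4%, 0.8% and 1.3%. The 39 promoters of the 34 cardiac genes held a GATA match in 13 cases, a T-box match in 8, a CArG box in 5, a MEF2 match in 3 and an NKX2-5 match in 1, and the CArG boxes were those of Actc1, Myl7, Myom1 and both annotated starts of Ldb3. These shares are descriptions and no difference between them was tested.

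In 7 lists that cover the contractile filaments, the Z-disc, calcium handling, conduction, secreted factors and the desmosome, 105 genes were measured, of which 41 rose, 5 fell and 59 did not pass, with a median difference of 0.33. The share raised over all genes was 4.56%.

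In the thin filament, 6 of 10 measured genes rose and none fell, with a median of 2.15. Tnnt2 read 9.31, 9.42 and 9.26 in the 0TF cultures and 13.98, 13.91 and 13.92 in the HNGMT cultures. The HNGMT readings of Tnnt2 are near the top of the range of the arrays, where a change can be understated. Tnni1, the slow skeletal troponin I that the embryonic heart also uses, rose by 2.60 (adjusted p = 1.33e-13), Tnni3, the adult cardiac troponin I, by 2.12 (adjusted p = 6.40e-13), and Tnnc1, the cardiac and slow troponin C, by 2.19 (adjusted p = 4.27e-12). Actc1, cardiac α-actin, read 8.65, 9.01 and 8.84 in the 0TF cultures and 11.49, 11.27 and 11.25 in the HNGMT cultures, with a rise of 2.50 (standard error 0.15). Genes for all subunits of the troponin complex were among those raised, while Tpm1, a tropomyosin, had a difference of 0.21 and was not called.

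In the thick filament, 6 of 13 genes rose and none fell, with a median of 0.49. Myl4, the atrial light chain, rose by 1.72, Mylk3, the cardiac myosin light chain kinase, by 1.66, Myl7, the atrial regulatory light chain, by 1.51, Myom1, a protein of the M-band, by 1.51, Mybpc3, cardiac myosin-binding protein C, by 1.19 and Ttn, the giant protein titin, by 0.89. The heavy chain genes Myh6 and Myh7 and the light chain gene Myl2 were not called. Myh6, the α heavy chain, read 7.49, 7.48 and 7.26 in the 0TF cultures and 7.72, 7.53 and 7.57 in the HNGMT cultures. Myh7, the β heavy chain, stood at 7.31 ± 0.04 (SD, n = 3) and 7.33 ± 0.18 (SD, n = 3), and Myl2, the ventricular regulatory light chain, at 6.78 ± 0.01 (SD, n = 3) and 6.87 ± 0.03 (SD, n = 3). The Myh7 cultures overlapped between the groups, whereas for Myh6 and Myl2 the HNGMT cultures lay just above the 0TF cultures, by 0.20 (adjusted p = 0.313) and 0.09 (adjusted p = 0.842). All means of Myh6, Myh7 and Myl2 lay within the ranges of the endoderm and liver genes (6.25 to 8.58 with 0TF and 6.2 to 8.46 with HNGMT). These genes may thus not be above background, and a change in them may be missed.

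Among 22 genes of the Z-disc and costamere, 9 rose and none fell, with a median of 0.43. Besides Hspb7, Smpx and Des, these were Pdlim3, a PDZ and LIM domain protein that binds α-actinin, with 2.91, Ldb3, another such protein, with 2.74, Nexn, nexilin, with 1.88, Xirp1 with 1.08, and the muscle ubiquitin ligases Trim63 with 0.89 and Trim55 with 0.84. Ldb3 read 8.10, 8.16 and 8.12 in the 0TF cultures and 10.86, 10.89 and 10.85 in the HNGMT cultures. Actn2, the muscle α-actinin itself, had a small difference of 0.26 (adjusted p = 0.163) and was not called. Its means of 7.67 with 0TF and 7.93 with HNGMT also lay within the ranges of the endoderm and liver genes.

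Genes of calcium handling moved both ways. Of 22 measured, 5 rose and 4 fell, with a median of 0.16. Ryr2, the calcium release channel of the heart, read 7.26, 7.34 and 7.11 in the 0TF cultures and 8.36, 8.55 and 8.48 in the HNGMT cultures. Pln, phospholamban, which restrains the calcium pump, read 6.69, 6.73 and 6.60 in the 0TF cultures and 7.71, 7.73 and 7.79 in the HNGMT cultures. The rise was 1.22 for Ryr2 (adjusted p = 3.46e-11) and 1.07 for Pln (adjusted p = 5.98e-08), with no overlap of the groups in either gene. The 0TF and HNGMT means of Ryr2 (7.24 and 8.46), Pln (6.67 and 7.74) and Ttn (6.91 and 7.79) lay within the ranges of the endoderm and liver genes. Those readings may thus not be above background, and the size of these rises may be understated. S100a1, a calcium sensor of cardiac muscle, rose by 1.18 and Jph2, which anchors the reticulum to the cell membrane, by 0.73. Genes of calcium entry and export were among those that fell. Slc8a1, the sodium-calcium exchanger, fell by 1.24, the channel subunit Cacna2d1 fell by 1.10, and the channels Cacna1h and Cacna1d fell by 0.75 and 0.71. Atp2a2, the calcium pump, stood at 11.95 ± 0.02 (SD, n = 3) and reached 12.46 ± 0.05 (SD, n = 3), a difference of 0.51 (adjusted p = 1.03e-09) that was under the fold threshold.

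Of 20 genes of conduction and gap junctions, 6 rose and 1 fell, with a median of 0.07. Popdc2 rose most. Gja5, the connexin of atrium and conduction system, read 7.71, 7.58 and 7.49 in the 0TF cultures and 9.28, 9.46 and 9.51 in the HNGMT cultures. Gja5 rose by 1.82, Hcn4, the pacemaker channel, by 1.33, and the potassium channels Kcnh2, Kcnj5 and Kcnj2 by 1.29, 0.88 and 0.67. Kcnd2, a channel of the transient outward current, went from 9.89 ± 0.10 (SD, n = 3) to 7.47 ± 0.14 (SD, n = 3) and fell by 2.42. Gja1, the main connexin of the working heart and also of fibroblasts, had a difference of -0.30 that was not called.

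Of 10 desmosomal and intercalated disc genes, 6 rose and none fell, with a median of 1.14. Dsp read 7.57, 7.25 and 7.35 in the 0TF cultures and 12.14, 12.23 and 12.09 in the HNGMT cultures. The desmosomal cadherins Dsc2 and Dsg2 rose by 2.32 and 1.40, Jup, plakoglobin, by 1.32, Pkp2, plakophilin, by 1.15, and Cxadr, a junctional receptor, by 1.14. Without the fold threshold all 10 were higher at an adjusted p under 0.05. Of 8 natriuretic and other secreted factors, Nppa, Nppb and Edn1, endothelin, rose and none fell. Nppb read 7.36, 7.09 and 7.12 in the 0TF cultures and 10.45, 10.39 and 10.45 in the HNGMT cultures, and Edn1 rose by 1.80.

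Of 30 further cardiac regulators, 10 rose and 4 fell, with a median of 0.09. Myocd read 7.05, 7.27 and 6.96 in the 0TF cultures and 10.25, 10.34 and 10.24 in the HNGMT cultures. Smyd1, a muscle methyltransferase, rose by 1.77, the splicing factors Rbm24 and Rbm20 by 1.49 and 0.81, Zfpm1, a cofactor of GATA proteins, by 1.45, Casz1 by 1.17 (with 0.20 for its second probe set), Fhl2, a LIM domain cofactor, by 0.98, Prox1 by 0.71 and the T-box factor Tbx2 by 0.64. The factors that fell were Meis2, Meis1, Zfpm2 and Tbx18, by 1.13, 1.00, 0.94 and 0.63, the last of which was short of the fold threshold without HNGMT replicate 1 (-0.57). Gata6 had -0.57, which passed the fold threshold without 0TF replicate 2 (-0.61) or HNGMT replicate 2 (-0.59), and with quantile normalization or median centring (-0.60 in each case). Regulators of early cardiac progenitors such as Isl1 and Mesp1 were not called.

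**Figure D2:**
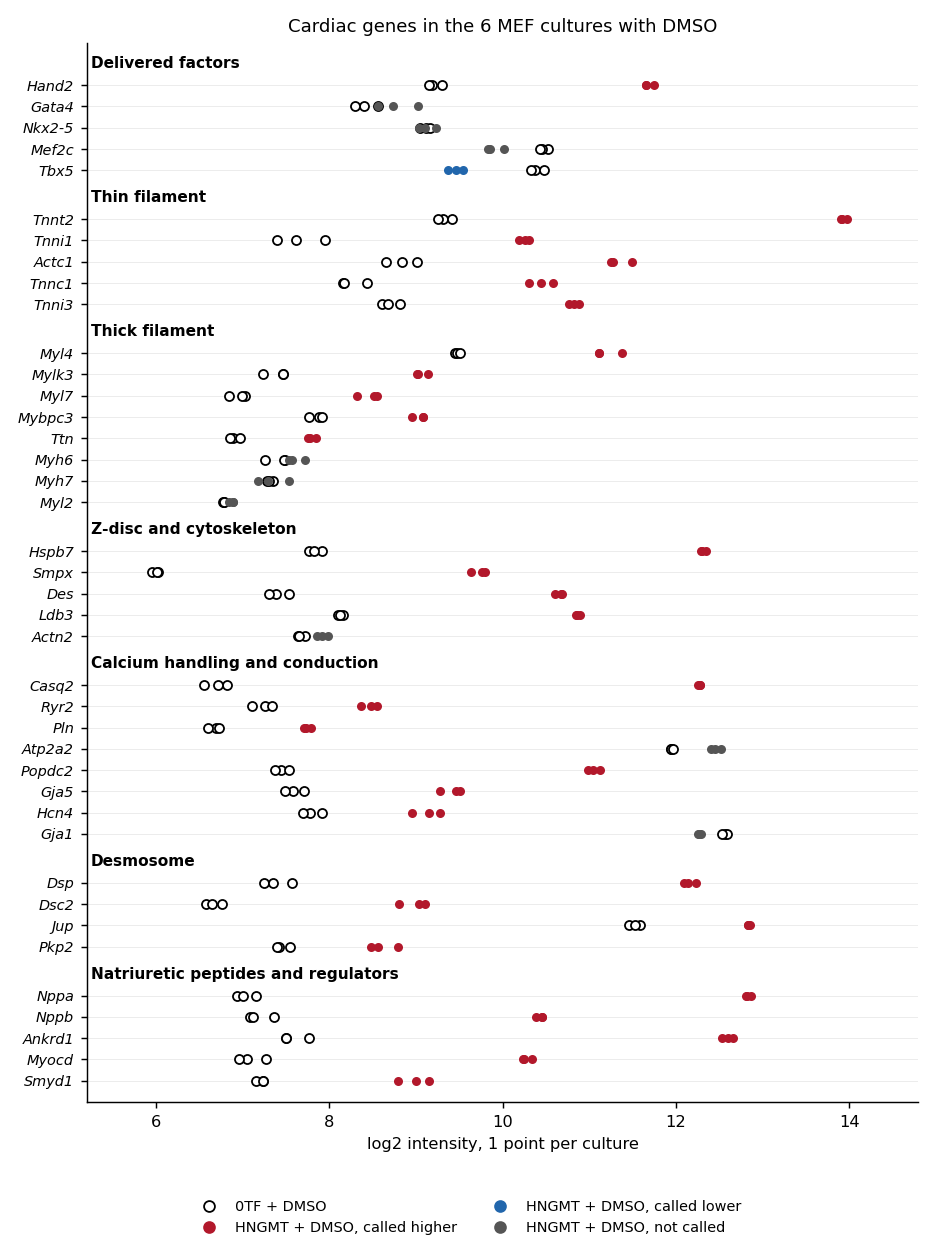
Log2 intensity (horizontal axis) of cardiac genes in each of the 6 cultures, open circles for 0TF and filled circles for HNGMT, coloured where called. Tnnt2, Casq2, Dsp, Nppa and Ankrd1 are well separated, while Myh7 and Nkx2-5 overlap between the groups.

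Of 27 genes of fatty acid oxidation and muscle energy, 6 rose and none fell, with a median of 0.25. Fabp3 read 8.74, 9.12 and 9.04 in the 0TF cultures and 12.28, 12.23 and 12.30 in the HNGMT cultures. Ppargc1a, a coactivator of mitochondrial genes, rose by 1.86 (adjusted p = 5.65e-14), Mb, myoglobin, by 1.60, Cox8b, a muscle subunit of cytochrome oxidase, by 0.93, Pdk4, an inhibitor of pyruvate use, by 0.62 and the glucose transporter Slc2a1 by 0.61. Pdk4 was short of the fold threshold without 0TF replicate 2 (0.57). Acadl and Hadhb, enzymes of β-oxidation, had 0.53 and 0.43 and were not called, and Acadl passed the fold threshold without HNGMT replicate 1 (0.59).

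Of 29 skeletal muscle genes, 2 rose and none fell, a share of 6.9% called against 9.08% over all genes in either direction, and the median was 0.03. The 2 were the metabolic genes Eno3 and Pygm with 1.21 and 1.07, and 4 were called without 0TF replicate 2 or without HNGMT replicate 3. Myod1, a myogenic regulator, stood at 7.51 ± 0.08 (SD, n = 3) and 7.55 ± 0.08 (SD, n = 3). Myod1 was not called, and neither was Myog, its relative, with 0.11.

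Of 19 smooth muscle and myofibroblast genes, 10 rose and none fell, with a median of 0.59. The largest rises were those of Mcam, a cell adhesion molecule of pericytes and smooth muscle, with 1.94, Itga8, an integrin, with 1.84, and Myh11, the smooth muscle myosin, with 1.66. Cnn1, calponin, rose by 1.02. Acta2, smooth muscle α-actin, read 12.98, 13.09 and 13.08 in the 0TF cultures and 13.65, 13.63 and 13.63 in the HNGMT cultures. Acta2 rose by 0.59, Tagln by 0.61 and Actg2 by 0.66, all close to the fold threshold. Median centring took the call from Acta2 (0.56) and Tagln (0.58). Acta2 was short of the threshold without 0TF replicate 1 (0.55) or HNGMT replicate 1 (0.58), Actg2 without HNGMT replicate 1 (0.55), and Tagln without 0TF replicate 2 (0.57), 0TF replicate 3 (0.58) or HNGMT replicate 1 (0.56). The mean of the 5 defining smooth muscle markers was 10.51 to 10.56 in the 0TF cultures and 11.17 to 11.28 in the HNGMT cultures, with 4 higher and none lower.

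Of the 6 keratin genes in the lists, Krt7, Krt8, Krt18 and Krt19 were called higher, and Krt5 (-0.04) and Krt14 (0.14) were not called. Krt7, a simple epithelial keratin, read 7.85, 7.90 and 7.94 in the 0TF cultures and 10.77, 10.48 and 10.59 in the HNGMT cultures. Krt7 rose by 2.72, Krt18 by 2.06, Krt8 by 1.67 and Krt19 by 1.28, each with no overlap of the groups. Krt8, Krt18 and Krt19 belong to the list of epicardium and mesothelium, of which 6 of 18 genes rose, including Upk3b with 1.07, and 3 fell, with a median of 0.21. The 4 defining mesothelial markers averaged 8.37 in every 0TF culture and 9.18 to 9.29 in the HNGMT cultures, with 2 higher. Of 15 epithelial genes Krt7 was the single call (6.7%, beside 9.08% over all genes in either direction), and a second gene was called without 0TF replicate 3. Epcam and Cdh1, of epithelial cell adhesion, had 0.36 and 0.15. The part of other cell types in these values was not tested.

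Of 19 genes of the fibroblast surface and cytoskeleton, 10 fell, 1 rose and 8 did not pass, with a median of -0.60, where 4.51% of all genes fell. Dpt, dermatopontin, read 13.24, 13.11 and 13.23 in the 0TF cultures and 10.43, 10.59 and 10.68 in the HNGMT cultures. Fap, the fibroblast activation protein, read 8.86, 8.71 and 8.96 in the 0TF cultures and 6.41, 6.65 and 6.70 in the HNGMT cultures. Cd34, a surface marker of embryonic and adventitial fibroblasts, fell by 1.41, Mme by 1.15, Cd248 by 1.03, the growth factor receptor Pdgfra by 1.02, Thy1 by 0.97, and Ackr3, Itgbl1 and Aspn by 0.93, 0.89 and 0.60. Aspn was short of the fold threshold without 0TF replicate 3 (-0.57) or with quantile normalization (-0.58). The exception was Gfpt2, which rose by 0.71. Pdgfra stood at 12.24 ± 0.06 (SD, n = 3) with 0TF and 11.22 ± 0.07 (SD, n = 3) with HNGMT. Vim, vimentin, read 14.20, 14.21 and 14.22 in the 0TF cultures and 14.21, 14.18 and 14.16 in the HNGMT cultures. The Vim readings are near the top of the array's range, and the groups overlapped.

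Of 28 transcription factors of mesenchyme, 10 fell, none rose and 18 did not pass, with a median of -0.46, and 1 rose without 0TF replicate 2. Osr2 and Osr1, odd-skipped factors of connective tissue, fell by 2.18 and 1.66. Osr1 read 13.07, 13.00 and 12.99 in the 0TF cultures and 11.39, 11.39 and 11.32 in the HNGMT cultures. Snai2, an inducer of epithelial-mesenchymal transition, fell by 1.26, Meox2 by 1.22, Zeb2 by 1.02, Prrx2 by 0.91, Twist1 by 0.89, Shox2 by 0.89, Lhx9 by 0.85 and Tbx15 by 0.68. Zeb1, Twist2 and Prrx1 had -0.49, -0.47 and -0.54, which were short of the fold threshold. Hox genes, which record the position of a fibroblast in the body, numbered 32, of which 5 fell (Hoxa13, Hoxd13, Hoxc8, Hoxd8 and Hoxa10) and none rose, the median was -0.25, and 24 had a lower level when the adjusted p alone was asked for, which held for 18.9% of all genes.

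Of 39 matrix glycoproteins and proteoglycans, 18 fell and 1 rose, with a median of -0.30. Smoc1 fell by 1.57, the proteoglycan Vcan by 1.53, Eln, elastin, by 1.47, Mfap4, a microfibril protein, by 1.41, the thrombospondins Thbs3 and Thbs2 by 1.19 and 1.12, and Lama4 by 1.16. Vcan read 13.34, 13.38 and 13.32 in the 0TF cultures and 11.70, 11.91 and 11.84 in the HNGMT cultures. Smoc2 rose by 1.02. Of 21 collagen genes, 3 rose and 2 fell, with a median of -0.11, a share of 23.8% called beside 9.08% over all genes in either direction. Col14a1 and Col3a1 fell by 1.16 and 0.76, and Col1a1, a chain of type I collagen, was not called and stood at 13.86 ± 0.05 (SD, n = 3) and 13.75 ± 0.03 (SD, n = 3). The 3 that rose were the basement membrane collagens Col4a1, Col4a2 and Col18a1, by 0.99, 0.94 and 0.86.

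Of 29 genes of matrix crosslinking and turnover, 5 rose and 8 fell, with a median of -0.16. The gelatinase Mmp9 fell by 2.48, the aggrecanases Adamts5 and Adamts1 by 1.40 and 1.01, Adamts12 by 1.23 and Lox, which crosslinks collagen and elastin, by 0.62. The collagenase Mmp13 rose by 1.82, the stromelysin Mmp3 by 1.62, Adamtsl2 by 1.63, Loxl4 by 1.30 and Pcolce2 by 1.09.

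**Figure D3:**
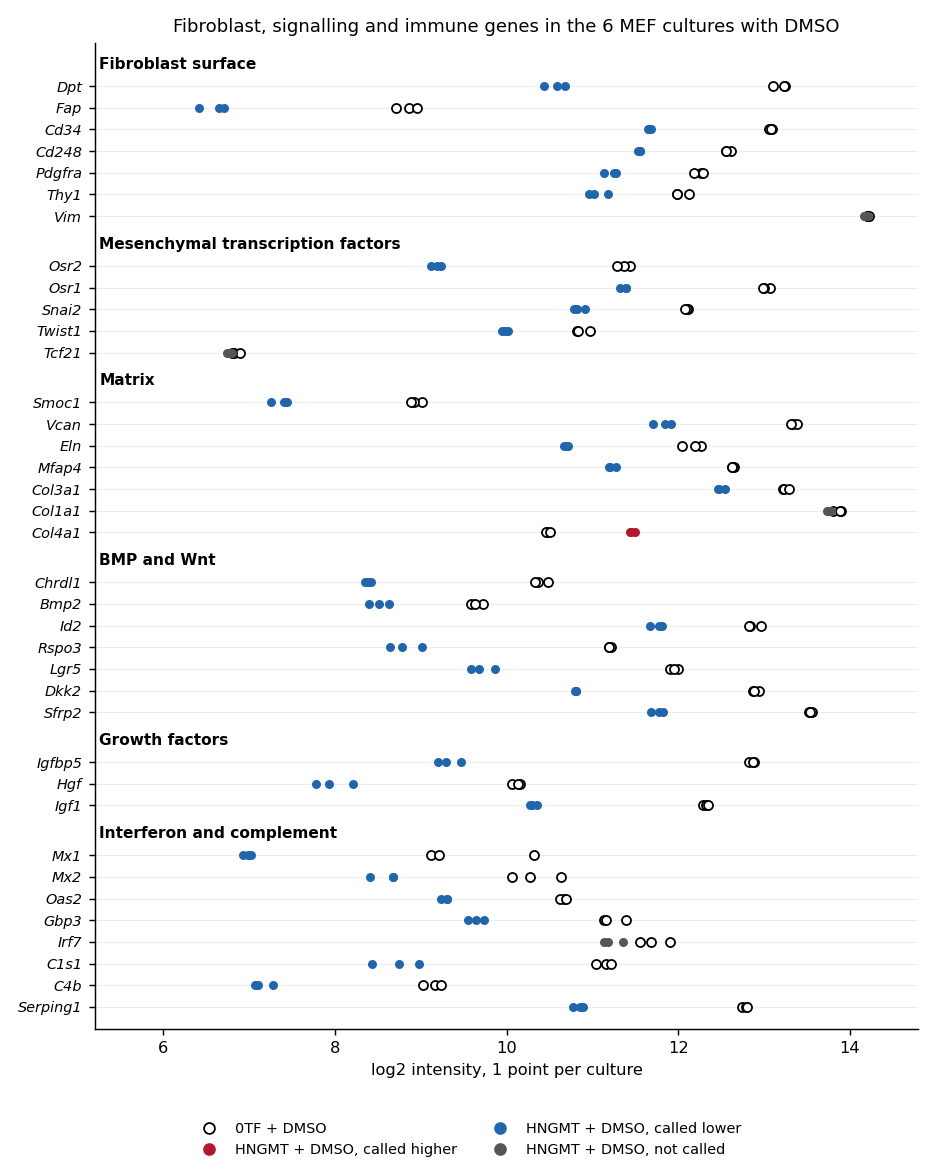
Log2 intensity (horizontal axis) of fibroblast, matrix, signalling and immune genes in each of the 6 cultures, open circles for 0TF and filled circles for HNGMT, coloured where called. Most are lower with HNGMT, Col4a1 is higher, Vim overlaps between the groups, and the 0TF cultures of Mx1 are spread from 9.12 to 10.32.

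Among the 25 genes with the largest fall, Ndst4, an enzyme that modifies heparan sulfate, read 10.96, 10.88 and 11.05 in the 0TF cultures and 6.53, 6.69 and 6.60 in the HNGMT cultures. Egfl6, a secreted matrix protein, read 12.25, 12.13 and 12.19 in the 0TF cultures and 8.26, 8.43 and 8.44 in the HNGMT cultures. Igfbp5, which binds insulin-like growth factors, read 12.83, 12.88 and 12.87 in the 0TF cultures and 9.20, 9.47 and 9.29 in the HNGMT cultures. The HNGMT cultures were far below every 0TF culture in these genes, and Ndst4 had the lowest difference (-4.36, standard error 0.07, adjusted p = 1.65e-17). Its HNGMT readings lay within the range of the endoderm and liver genes, whose HNGMT means were 6.2 to 8.46, so the size of this fall may be understated too. The channel subunit Cacna2d3 fell by 3.62, Lbp, which binds bacterial lipopolysaccharide, by 3.35, Pgm5 by 3.34, the cofactor Ldb2 by 3.23, C1qtnf3 by 3.12, Olfml1 by 3.07, Hpse2, a heparanase relative, by 3.00 and Apela, a ligand of the apelin receptor, by 3.00. Adh1 and Fmo1, which oxidise alcohols and drugs, fell by 2.91 and 2.67, the receptors Vipr2 and Agtr1a, for a vasoactive peptide and for angiotensin, by 2.69 and 2.64, and Kera, the proteoglycan keratocan, by 2.59. Dpt, described above, Sncaip, Gask1a, Steap4, Prss35, Fxyd1, Mx1 and Cmbl had differences of -2.57 to -2.77, and the remaining 1 of the 25 has no curated name. Agtr1a, the receptor for the product of the raised gene Agt, went from 11.41 ± 0.03 (SD, n = 3) to 8.77 ± 0.18 (SD, n = 3).

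Of 24 BMP genes, 10 fell and 2 rose, with a median of -0.33. The antagonists Chrdl1 and Grem1 fell by 2.01 and 1.30, and the ligands Bmp5, Bmp2 and Bmp4 fell by 1.30, 1.13 and 0.73. The receptor Bmpr1b fell by 1.08. The Id genes, direct targets of the pathway, all fell, by 0.87 for Id1, 1.13 for Id2, 1.15 for Id3 and 1.16 for Id4. Bambi, a decoy receptor, rose by 0.95 and the ligand Bmp7 by 0.71. Id2 read 12.84, 12.83 and 12.97 in the 0TF cultures and 11.81, 11.77 and 11.67 in the HNGMT cultures.

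Of 38 Wnt genes, 14 fell and 2 rose, with a median of -0.37. Ligands (Wnt2, Wnt5a, Wnt2b), ligand enhancers (Rspo3, Rspo2), receptors (Lgr5, Lrp6, Fzd4) and secreted antagonists (Dkk2, Sfrp2, Frzb, Sfrp1, Dkk3) were all among the genes that fell. Rspo3 fell by 2.39, Lgr5 by 2.24, Dkk2 by 2.09, Sfrp2 by 1.78 and Wnt2 by 1.65. Lgr5 read 12.00, 11.90 and 11.95 in the 0TF cultures and 9.68, 9.86 and 9.59 in the HNGMT cultures. Apcdd1, an antagonist, fell by 1.13. Sfrp5 and Nkd2 rose by 1.22 and 0.64.

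Of 25 TGFβ target genes, 8 rose and 3 fell, with a median of 0.07, and 5 rose without HNGMT replicate 1. Cnn1 led these, and Inhba, a chain of activin, rose by 0.82, Smad7, the inhibitory Smad, by 0.75 and Ccn2, connective tissue growth factor, by 0.64, while Tgfbi fell by 0.87. Several smooth muscle genes stand on this list as well. Of 27 components of the pathway, 3 rose and 3 fell, namely Fstl3, the receptor Tgfbr1 and the ligand Tgfb3 with 0.83, 0.71 and 0.65, and the receptors Tgfbr3, Acvr2a and Acvrl1 with -1.22, -1.16 and -0.88. Of 13 Notch genes, Hes1, a target, rose by 1.43 and Jag1, a ligand, fell by 0.82. The shares called were 22.2% of the pathway components and 15.4% of the Notch genes, beside 9.08% over all genes in either direction. Of 23 Hedgehog and FGF genes, 4 rose and 7 fell, a share of 47.8% called beside the same 9.08%. The Hedgehog receptor and target Ptch1 rose by 1.22 and the FGF feedback inhibitor Spry4 by 1.45, while its relative Spry2 fell by 1.25, Fgf7 and Fgf10 by 1.51 and 1.08, and the mediators Gli3 and Gli2 by 0.99 and 0.92.

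Growth factors of vessels and mesenchyme were divided, with 8 of 27 higher and 8 lower and a median of -0.14. Hgf, hepatocyte growth factor, read 10.16, 10.06 and 10.13 in the 0TF cultures and 7.78, 8.21 and 7.93 in the HNGMT cultures. Hgf fell by 2.14, Igf1 by 2.02, Angpt2 by 1.34 and Angpt1 by 0.72, which was short of the fold threshold without HNGMT replicate 1 (-0.57). Angpt4 rose by 1.49, Ereg, epiregulin, by 1.27, Pdgfa by 1.09 and Vegfa by 1.01.

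Of 32 interferon-induced genes, 16 fell and none rose, with a median of -0.69. Mx1, a dynamin-like protein against viruses, read 9.12, 10.32 and 9.21 in the 0TF cultures and 6.93, 7.02 and 6.98 in the HNGMT cultures. Mx2 read 10.27, 10.63 and 10.06 in the 0TF cultures and 8.41, 8.67 and 8.67 in the HNGMT cultures. Oas2, which senses double-stranded RNA, read 10.67, 10.62 and 10.69 in the 0TF cultures and 9.31, 9.23 and 9.30 in the HNGMT cultures. The 0TF cultures were spread unevenly in these genes, and 0TF replicate 2 was the highest of its group in 15 of the 16, with Oas2 the exception. The mean over the 16 genes was 11.01, 11.33 and 10.93 in the 0TF cultures and 9.87, 9.80 and 9.85 in the HNGMT cultures. Without 0TF replicate 2, 13 fell and 1 rose. Mx1 fell by 2.57 (standard error 0.30, adjusted p = 1.30e-06), Oas2 by 1.38 (standard error 0.09) and Gbp3, a guanylate-binding protein, by 1.58. Over the 16 genes the median SD was 0.18 between the 0TF cultures and 0.08 between the HNGMT cultures. Irf7, which relays the interferon signal, had -0.49 (adjusted p = 0.0877) and was not called. The virus that the 0TF cultures received is not known here, and its part in these values was not tested. Of 12 antigen presentation genes, the immunoproteasome genes Psmb9 and Psmb10 fell by 0.85 and 0.62. They were 16.7% of that list, beside 9.08% of all genes called in either direction. Psmb10 was short of the fold threshold without 0TF replicate 2 or HNGMT replicate 2 (-0.56 in each case).

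Of 17 complement and related genes, 10 fell and 3 rose, with a median of -0.72. C1s1 and C1ra, proteases of the first step, fell by 2.42 and 1.79, C4b by 2.00, Cfb by 1.83 and Serping1, the inhibitor of the first step, by 1.94. Serping1 read 12.74, 12.79 and 12.80 in the 0TF cultures and 10.85, 10.89 and 10.77 in the HNGMT cultures. Cd59a, which protects cells from lysis, rose by 1.46. Of 35 chemokines, cytokines and prostaglandin enzymes, 5 fell and 3 rose, with a median of -0.05, among them Cxcl15 and Ccl11 with falls of 2.34 and 1.90 and Ccl17 with a rise of 1.42. Those called were 22.9% of that list, beside 9.08% of all genes called in either direction.

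Of 30 genes of the ATF4 and unfolded protein responses, 11 rose and none fell, with a median of 0.36. The amino acid transporter Slc7a5 read 11.59, 11.62 and 11.60 in the 0TF cultures and 12.81, 12.83 and 12.83 in the HNGMT cultures. Slc7a5 rose by 1.22, Nupr1 by 1.21, Atf3 by 1.25, Chac1 by 1.05 and the serine and asparagine synthesis genes Psat1 and Asns by 0.89 and 0.79. Atf4 itself, whose protein is controlled at translation, had 0.12, and the chaperone Hspa5 of the endoplasmic reticulum had 0.08. Of 28 adipocyte genes, 5 rose and 2 fell. Dgat2, the last enzyme of triglyceride synthesis, rose by 1.74, Lipe, hormone-sensitive lipase, by 0.91 and Apoe by 0.79, while Lpl, lipoprotein lipase, fell by 1.41 and Cebpa by 0.84.

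In limma none of 23 mitosis genes and none of 24 DNA replication genes was called. Without the fold threshold, 13 mitosis genes were higher and none lower, and 11 replication genes were higher and 2 lower, at an adjusted p under 0.05, against 21.6% of all genes higher and 18.9% lower. With p under 0.05 before adjustment, 16 mitosis genes were higher and 0 lower and 12 DNA replication genes were higher and 3 lower, against 23.9% and 21.5% of all genes. The medians were 0.17 and 0.14. Anln, anillin, which acts in cytokinesis, had 0.38. E2f1, a transcription factor of the S phase, had the lowest difference of the replication genes, -0.45. Of 21 cell cycle inhibitors, p53 targets and apoptosis genes, Gadd45g rose by 1.65 and Bcl2l11, which promotes apoptosis, fell by 0.91, a share of 9.5% called beside 9.08% over all genes.

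Of 24 endothelial genes, Ecscr rose by 1.09 and Tek and Flt1 fell by 2.12 and 0.82, while Pecam1 had 0.14. The share of endothelial genes called was 12.5%, beside 9.08% over all genes in either direction. The 6 defining endothelial markers averaged 7.27 to 7.37 with 0TF and 6.92 to 6.98 with HNGMT, with Tek lower. Of 22 leukocyte genes, Lyz2, lysozyme, fell by 1.83 and Mcpt4, a mast cell protease, rose by 1.55, and 2 genes of this list fell without 0TF replicate 1 or without 0TF replicate 3. The share of leukocyte genes called was 9.1%, beside 9.08% over all genes. The mean of the 5 defining leukocyte markers was 7.46 to 7.66 in the 0TF cultures and 7.43 to 7.51 in the HNGMT cultures. Of 20 neural genes, 4 fell and none rose, among them Map2 by 0.82 and Stmn2 by 0.78, both of the neuronal cytoskeleton. Of 20 cartilage and bone genes, Alpl, alkaline phosphatase, and Sox5 rose by 2.43 and 1.09, and Phex, Comp and Sox9 fell by 1.58, 0.99 and 0.81. None of 21 endoderm and liver genes was called in limma, 1 was higher and 1 lower at any fold, and without adjustment of p, 2 were higher and 3 lower. Their means in the 0TF cultures were 6.25 to 8.58, which gives an idea of readings for genes that fibroblasts are not known to use.

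The 15 defining fibroblast markers, the check of the labelled cell type, had a mean of 12.97 to 13.02 in the 0TF cultures and 12.48 to 12.51 in the HNGMT cultures, with 6 lower and none higher, and the lowest of them stood at 10.87 with 0TF. The 12 cardiomyocyte markers averaged 7.52 to 7.62 in the 0TF cultures and 9.22 to 9.31 in the HNGMT cultures, and 8 of them were higher. Of 11 genes often used as references, Tfrc, the transferrin receptor, rose by 1.88 and the others were not called, although a second rose without 0TF replicate 1. The share of these genes called was 9.1%, beside 9.08% over all genes in either direction. Tfrc read 6.60, 6.67 and 6.88 in the 0TF cultures and 8.37, 8.75 and 8.67 in the HNGMT cultures. Actb, β-actin, stood at 14.20 ± 0.01 (SD, n = 3) and 14.25 ± 0.02 (SD, n = 3), and Ppia at 13.44 ± 0.01 (SD, n = 3) and 13.51 ± 0.03 (SD, n = 3).

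**Figure D4:**
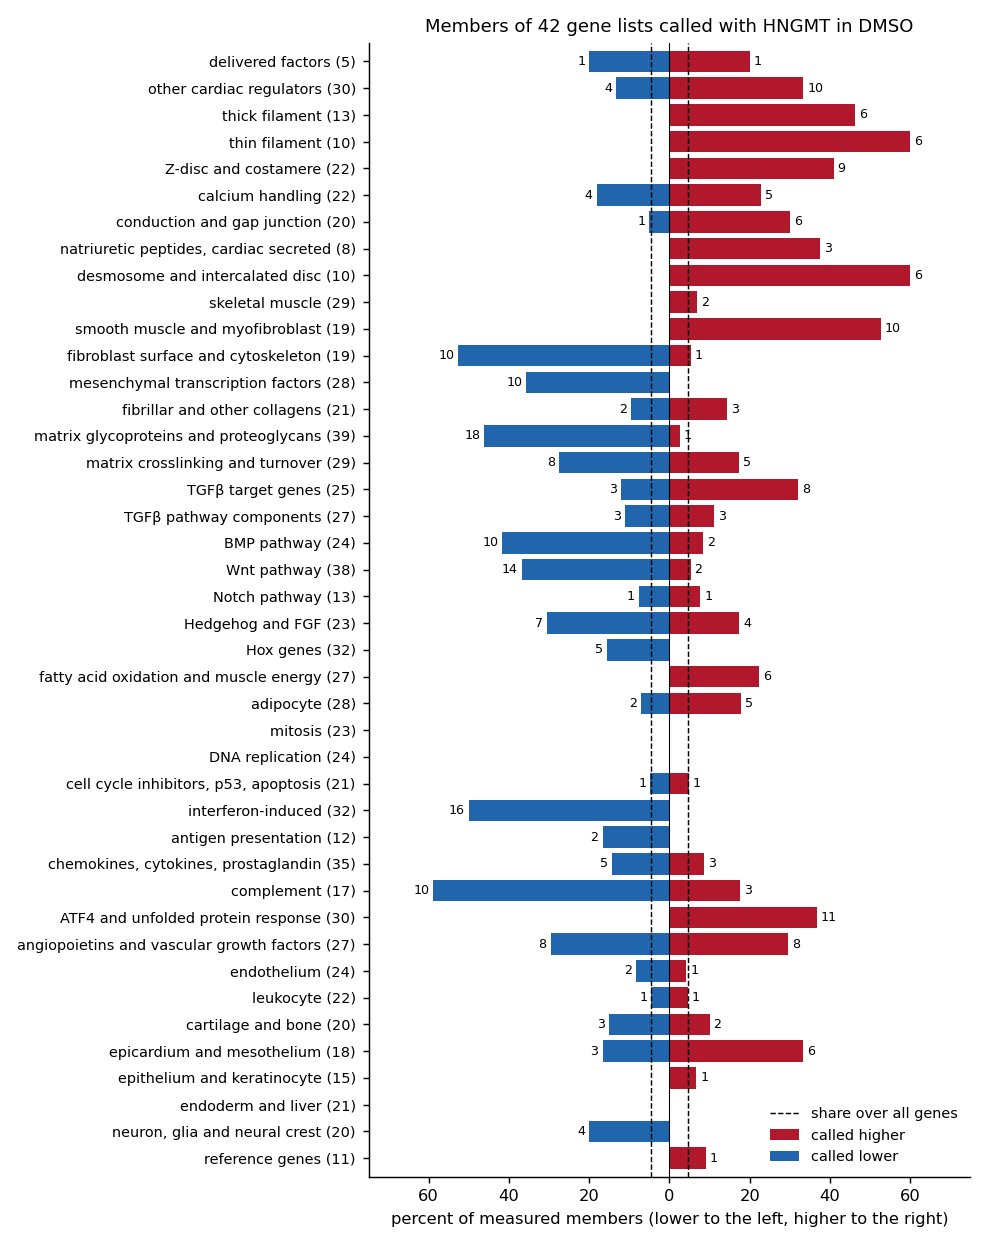
Percent of the measured members of 42 gene lists (number measured in brackets) called higher (red, to the right) or lower (blue, to the left) with HNGMT in DMSO, with the number called beside each bar and the share over all genes as dashed lines. Contractile, desmosomal and smooth muscle lists extend to the right, and fibroblast, Wnt, BMP, interferon and complement lists to the left.

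Whether the effect of the factors recurs when TGFβ signalling is blocked or added was read from the same contrast of HNGMT with 0TF in cultures with SB at 0.5 µM and with TGFβ1 at 2 ng per mL, on other arrays. The effect of the factors here means the difference between HNGMT and 0TF. In none of the media can it be told apart from a difference in viral load. Of the 910 genes raised in DMSO, 751 (82.5%) were also raised with SB and 629 (69.1%) with TGFβ1, against 5.04% and 6.37% raised over all genes. Of the 900 genes lowered in DMSO, 672 (74.7%) were also lowered with SB and 368 (40.9%) with TGFβ1, against 4.81% and 3.88% over all genes. In either direction, SB and TGFβ1 gave calls for 9.85% and 10.3% of all genes. Raised in all 3 media were 541 genes, and lowered in all 3 were 305.

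The difference between the effects was tested as an interaction, which shares the DMSO arrays. With SB, 178 genes (0.893%) had a higher and 212 (1.06%) a lower effect of the factors than in DMSO, 1.96% in all. With TGFβ1, 934 (4.68%) had a higher and 552 (2.77%) a lower effect, 7.45% in all. Among the genes lowered in DMSO, 391 (43.4%) had a higher effect called with TGFβ1 and 49 (5.4%) a lower one, and their median effect was -0.92 in DMSO and -0.44 with TGFβ1. Among those raised in DMSO, 142 (15.6%) had a smaller and 138 (15.2%) a larger effect with TGFβ1, and the median was 0.92 in both. The DMSO arrays both chose these genes and enter the interaction, so these counts and medians are a description.

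Some of the genes lowered most in DMSO had effects near 0 with TGFβ1. Each effect is a difference from the 0TF cultures of the same medium, whose levels can differ between media. Mef2c, for one, read 10.52, 10.46 and 10.43 in 0TF cultures with DMSO and 9.37, 9.39 and 9.44 with TGFβ1. For the genes that follow, Adipoq excepted, whether the 0TF or the HNGMT level moved was not tested. Ndst4 had an effect of -4.36 in DMSO and 0.01 with TGFβ1, a difference of 4.37 (adjusted p = 1.07e-14). For Cacna2d3 and Lbp the effects with TGFβ1 were -0.08 and -0.01, differences of 3.54 and 3.34. Mme, an endopeptidase of the cell surface, turned from -1.15 in DMSO to 2.81 with TGFβ1, a difference of 3.96 (adjusted p = 1.31e-13). Dpt and Prss35 had effects of -2.59 and -2.63 with TGFβ1, and no difference from DMSO was called. Of the 16 interferon genes lowered in DMSO, 3 were also lowered with SB and 1 with TGFβ1, and the difference was called for 4 and 12 of them, including Mx1 with a difference of 2.46 (adjusted p = 0.0002) for TGFβ1. For SB the difference of Mx1 was 1.42 (adjusted p = 0.0469), and it lost its call in 17 of 25 alternative fits other than those of the fold threshold, with adjusted p from 0.00217 to 0.115.

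Casq2 had an effect of 5.69 with SB and 5.58 with TGFβ1, and Nppa 6.09 and 6.22, with no called difference from DMSO. For Tnnt2 the effect was larger with SB by 0.94 (adjusted p = 5.07e-06) and with TGFβ1 by 0.77 (adjusted p = 9.69e-06). Its HNGMT level in DMSO was already 13.94, and no probe set read above 14.61 on HNGMT arrays with SB or 14.64 with TGFβ1. That left little room for a higher HNGMT level, and these differences also depend on the 0TF level of each medium. Pln had 1.07 in DMSO, 2.53 with SB and 0.44 with TGFβ1, and both differences were called (1.46 and -0.63), the latter not without HNGMT + TGFβ1 replicate 1 (-0.57). Ankrd1, at 5.01 in DMSO and 5.01 with SB, had 2.65 with TGFβ1, a difference of -2.36 (adjusted p = 3.49e-10), and Actc1 had a difference of -1.80 with TGFβ1 (adjusted p = 4.50e-06) and of 0.96 with SB, the latter not called with all 27 arrays in the fit (adjusted p = 0.201). All 6 genes of the thick filament and all 6 of the thin filament raised in DMSO were also raised with SB and with TGFβ1.

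By list, the 10 smooth muscle genes raised in DMSO were all raised with SB and 3 with TGFβ1, and their median effect was 0.87 in DMSO, 1.67 with SB and 0.40 with TGFβ1. The 8 TGFβ target genes raised in DMSO, which share members with that list, were all raised with SB and 1 with TGFβ1, with medians of 0.67, 1.10 and -0.24. Of the 10 mesenchymal transcription factors lowered in DMSO, 10 were lowered with SB and 6 with TGFβ1, and of the 18 matrix glycoproteins and proteoglycans 17 and 9. The 11 genes of the ATF4 and unfolded protein responses raised in DMSO were raised in 8 cases with SB and 3 with TGFβ1, with medians of 0.89, 0.68 and 0.36. None of the 5 adipocyte genes raised in DMSO was raised with SB, and 4 of the 5 had a smaller effect called there. For these lists, too, whether the 0TF or the HNGMT levels moved between media was not tested.

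The 8 lowest differences with SB included genes known from adipocytes, Cd36, Adipoq, Gpd1, Fabp4 and Retn. The carbonic anhydrase Car3 had an effect of -0.13 in DMSO and -5.80 with SB (difference -5.66, adjusted p = 9.27e-14), and the hormone gene Adipoq -0.11 and -4.03 (difference -3.91). In the 0TF cultures Adipoq averaged 6.57 with DMSO and 10.64 with SB, and in the HNGMT cultures 6.46 and 6.61, so the 0TF cultures with SB stood apart from the other 3 groups. Dgat2, raised in DMSO, fell with SB, with an effect of -1.07. Agt rose in DMSO by 3.17 and had 0.04 with SB (difference -3.13, also called). At the other end, Cpxm2 had 1.60 in DMSO and 3.85 with SB, and Lgr5, lowered in DMSO, had -0.45 with SB (difference 1.79, adjusted p = 1.37e-07). With TGFβ1 the lowest differences were those of Mcpt8 with -3.74, the milk protein Csn3 with -3.32 and Mmp3 with -3.09, where Mmp3 rose in DMSO and had an effect of -1.47 with TGFβ1.

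**Figure D5:**
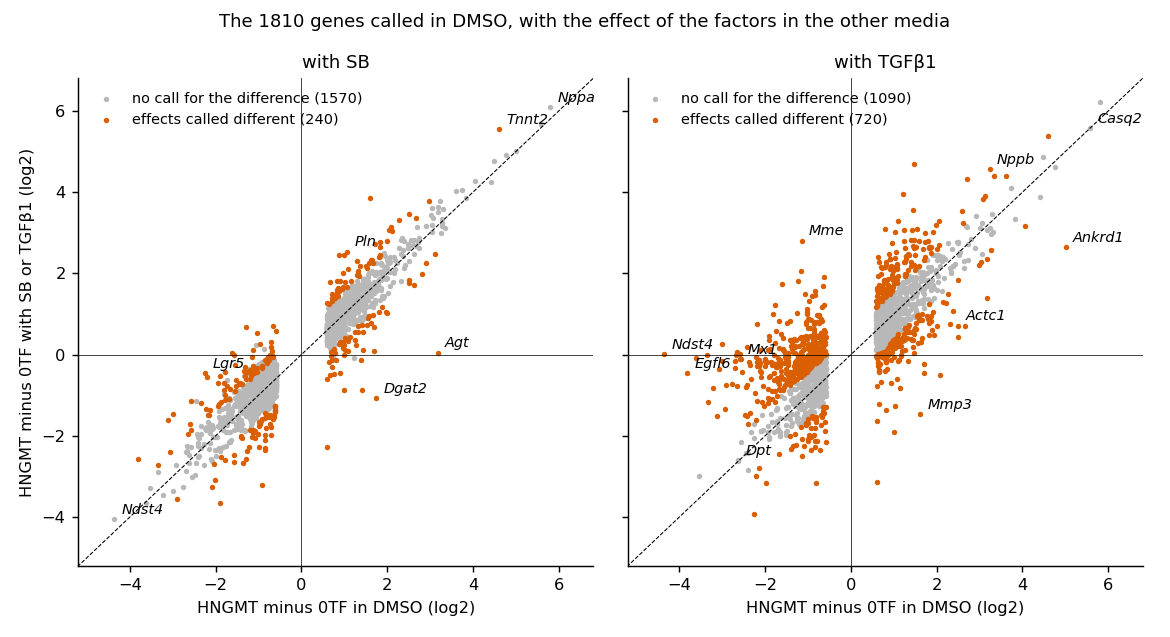
Effect of HNGMT (HNGMT minus 0TF, log2) with SB (left) or TGFβ1 (right) against the effect in DMSO, for the 1810 genes called in DMSO, 1 point per gene, with genes in orange where the interaction was called. Most points lie near the dashed line of equal effects with SB, while with TGFβ1 many lowered genes, Ndst4 among them, lie near 0.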

How the data were processed

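RNA from 27 cultures was measured on 27 arrays of the Affymetrix Mouse Gene 1.0 ST type. The values are log2 probe set intensities as deposited by the authors, whose processing notes name MAS5. The methods add PartekGS, and the normalization is not given in the sources used here. Of 35556 probe sets, 21789 had 1 gene symbol in the platform annotation, 1621 had several and 12146 had none. A gene was represented by its single-symbol probe set with the highest mean over all arrays, which left 19938 genes, 999 of them with more than 1 such probe set.

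Groups were taken from the sample labels. In R 4.3.3, limma 3.58.1 (lmFit and eBayes) was fitted to the 18 MEF arrays with 1 coefficient per group. The contrast was HNGMT + DMSO minus 0TF + DMSO, 3 arrays against 3. Tests were two-sided with Benjamini-Hochberg adjustment over all genes, and a call needed an adjusted p under 0.05 and a fold of at least 1.5, the threshold that the methods state for MEFs. Interactions compared the effect of the factors between media. The procedure was tested on simulated data. No arrays held identical values.

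The genes named are the delivered factors, the 25 highest and 25 lowest called genes without overlap of the groups, members of 42 gene lists (909 genes measured) and the 8 highest and 8 lowest differences between media. The members and lists were chosen with earlier results of these data known, so lists are described by counts and medians and not tested. Promoters came from a RefSeq table (GRCm38.p6), and motifs were searched on both strands of the 250 bases before each start. Alternatives covered the arrays fitted, a replicate block, a filter on genes under the 40th percentile, probe set averaging, quantile normalization, median centring, an intensity trend, the fold threshold and leaving out each array.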

Additional observations from a re-analysis of the deposited data

Results flagged for a closer look

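Each value here is a difference between the effect of HNGMT in another medium and its effect in DMSO, tested as an interaction with limma and Benjamini-Hochberg adjustment over all genes. With SB, 178 genes had a higher effect and 212 a lower one. With TGFβ1, 934 genes had a higher effect and 552 a lower one.

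With SB, the cardiac genes Pln, Actc1 and Tnnt2 had larger effects by 1.46, 0.96 and 0.94. Actc1 lost its call with all 27 arrays in the fit (adjusted p = 0.201), and the HNGMT readings of Tnnt2 in DMSO were already near the top of the range of the arrays. The effect was higher by 1.79 for Lgr5 and by 1.42 for Mx1, both lowered in DMSO, but the call of Mx1 was lost in 17 of 25 alternative fits, among them the replicate block (adjusted p = 0.0519) and the fit on the arrays of the contrast alone (adjusted p = 0.102), and its value was 1.04 without the 0TF DMSO replicate 2. It was lower for Car3 (-5.66), Adipoq (-3.91) and Agt (-3.13).

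With TGFβ1, the effect was higher for genes lowered in DMSO, namely Ndst4 (4.37), Mme (3.96), Cacna2d3 (3.54), Lbp (3.34) and Mx1 (2.46), and for Tnnt2 (0.77). It was lower for Mcpt8 (-3.74), Csn3 (-3.32), Mmp3 (-3.09), Ankrd1 (-2.36), Actc1 (-1.80) and Pln (-0.63). Pln lost its call with quantile normalization and without HNGMT + TGFβ1 replicate 1 (-0.57 in each case).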

How the results depend on the processing

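The counts over all genes moved by over 1.5 times only with the fold threshold. Without it, 4301 genes were higher and 3765 lower in DMSO, and 2264 and 1759 of them were called the same way in all 3 media. The difference between effects was then called higher for 824 and lower for 857 genes with SB, and for 3068 and 3180 with TGFβ1. At a fold of at least 2, these counts were 397 and 382, 237 and 97, 45 and 70, and 397 and 151. Leaving out 1 array gave 894 to 958 genes higher and 874 to 925 lower, 168 to 211 and 209 to 231 for SB, 887 to 1001 and 511 to 616 for TGFβ1, and 532 to 547 and 292 to 313 in all 3 media. Other alternatives gave 834 to 910 genes higher and 793 to 959 lower. For the differences between effects they gave 124 to 191 and 164 to 219 for SB, and 784 to 938 and 493 to 687 for TGFβ1. In all 3 media they gave 484 to 541 and 292 to 360. With the replicate block the counts stayed at 910 and 900, with the same genes. Same-numbered cultures did not clearly deviate together (correlations of -0.05, -0.41 and 0.21), and 1 of the 6 arrays correlated best with its own number. Of the 18 MEF arrays, 7 correlated best with an array of their own number in another group. Pairing by number was thus not evident, but 3 cultures a group cannot exclude it. Fitting all 27 arrays together took the call from Apoe, Bmp4, Jag1, Mmp3 and Nkd2 and from the difference of Actc1 with SB, where the spread of the cardiac fibroblast arrays enters the fit. Among the genes named, quantile normalization took it from Lox and Aspn (-0.58 in each case) and from the difference of Pln with TGFβ1 (-0.57), and brought the TGFβ target genes lowered from 3 to 1, while centring each array on its median took it from Slc2a1 (0.58), Acta2 (0.56) and Tagln (0.58). Both gave a call to Mef2c and Gata6 (-0.60 in each case). The sign turned for Nkx2-5 with quantile normalization (-0.02), with centring (-0.02), and over the arrays left out in turn its value ran from -0.04 to 0.06, and it turned for Myh7 with centring (-0.01), where leaving out arrays gave -0.08 to 0.10. The cause was not tested. With 3 arrays a group, their number limits the precision, and signals near the top or bottom of the range may understate a change.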
